A study of Homo sapiens with 8 samples.

Results

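The 9 genes CAD, DHODH, UMPS, UCK1, UCK2, UPP1, TYMP, CDA and CMPK1 encode the enzymes that make pyrimidine nucleotides from small precursors and those that recover or break down preformed pyrimidine nucleosides. They were chosen by name as members of this pathway and are 9 of the 23393 genes in the table of read counts. All 9 passed the filter on low counts and were among the 15262 genes tested. The read counts came from MDA-MB-231 (MB231) cells, a human breast cancer line with mesenchymal features, and from a ρ0 derivative of it labelled p0#27, a derivative without functional mitochondrial DNA. Each line was sequenced as control cells and after arginine deiminase (ADI), an enzyme that degrades arginine, had been added to the full growth medium (high-glucose DMEM with fetal bovine serum and antibiotics) at 0.3 µg/mL for 48 h. The 4 groups were therefore parental control, parental arginine-starved, ρ0 control and ρ0 arginine-starved, with 2 libraries in each. The study's methods describe arginine-free medium with dialysed serum for starvation in general, whereas the labels of these libraries name ADI, and the labels were followed here.

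The ρ0 cells were 1 line, number 27, derived with ethidium bromide and, by the study's methods, kept with sodium pyruvate, uridine and ethidium bromide. The labels of the libraries list none of these supplements. Loss of mitochondrial DNA, the culture supplements and the history of this 1 line cannot be told apart in any difference between ρ0 and parental cells. Transcripts encoded by mitochondrial DNA were not analysed here, so the ρ0 label was not checked on them.

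In the de novo route, CAD, a protein with several enzyme activities, builds dihydroorotate from glutamine, bicarbonate and aspartate. DHODH, in the inner mitochondrial membrane, oxidises dihydroorotate to orotate and passes the electrons to ubiquinone of the respiratory chain, and UMPS then turns orotate into UMP. Cells without a working respiratory chain cannot sustain the DHODH step, which is why ρ0 lines are commonly grown with uridine. In the salvage route, the uridine-cytidine kinases UCK1 and UCK2 phosphorylate uridine and cytidine, CDA deaminates cytidine and deoxycytidine, UPP1 cleaves uridine to uracil, TYMP cleaves thymidine to thymine, and CMPK1 phosphorylates UMP and CMP from both routes. Aspartate is also a substrate of ASS1, argininosuccinate synthase, which joins it to citrulline when cells make their own arginine. The study describes MDA-MB-231 cells as ASS1-deficient, and ASS1 had at most 10 reads in each parental library.

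The libraries held between 25259503 and 31022155 counts, of which the 9 genes took 0.0813 to 0.109%. The libraries of 3 groups were close to each other, with a biological coefficient of variation, the spread between replicates beyond counting error, of 5.16% for parental control, 2.29% for parental starved and 1.84% for ρ0 starved cells. For the ρ0 control pair it was 25.1%. Levels are given as CPM, counts scaled to a common library size with edgeR's TMM factors. The level of the 7 replication genes MCM2 to MCM7 and PCNA was 1.47 to 1.93 times as high in ρ0 control replicate 2 as in replicate 1, and 6 of the 9 pyrimidine genes were higher in replicate 2, with ratios of replicate 2 to replicate 1 from 0.749 for CDA to 2.14 for DHODH. The part of this split in the results below was not tested, and the values of the 9 genes that rest on these libraries are also given without each of them, where the remaining library was assumed to vary like the other groups. VIM, CD44, CAV1, AXL and ZEB1, markers of this line, were present in every library, and the hormone receptor genes ESR1 and PGR had at most 6 counts. The lines also differed at other marker genes. CDH1 (E-cadherin) had at most 2 counts in each parental library and 457 and 440 in the ρ0 controls, while FOXA1 had 212 to 277 counts in parental and at most 4 in ρ0 libraries. Of the markers of other cell types, CD3E and HBB were at 0 in all libraries, and PTPRC and ALB were at most 0.452 and 0.674 CPM. The macrophage marker CD68, however, had 51.29 to 122 CPM, and the endothelial marker PECAM1 had 0.0355 to 3.157 CPM. CD68 fell under starvation (log2 fold change -0.92 in parental and -0.31 in ρ0 cells), as did PECAM1, and their part in the results was not tested. In bulk RNA, fewer cells of a type and less RNA per cell cannot be told apart. Nothing in the labels says whether the replicates were separate cultures, so the p-values measure only the spread between these libraries, which may be technical.

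The upstream sequences of the de novo genes are shown because DHODH and UMPS moved together under starvation in parental cells while their partner CAD did not pass the test. Each is the 250 bases before the gene's start in RefSeq, on assembly GRCh38.p14, read in the direction of transcription. DHODH lies at chr16:72008494-72008743 on the plus strand, and its capitals mark CACGTG, the E-box bound by MYC family factors. UMPS lies at chr3:124730202-124730451 on the plus strand, and its capitals mark TGACGTCA, the cAMP response element, a motif added after the sequences had been seen. CAD lies at chr2:27217119-27217368 on the plus strand and held neither of these, nor TGATG, the core of the amino acid response element.
DHODH: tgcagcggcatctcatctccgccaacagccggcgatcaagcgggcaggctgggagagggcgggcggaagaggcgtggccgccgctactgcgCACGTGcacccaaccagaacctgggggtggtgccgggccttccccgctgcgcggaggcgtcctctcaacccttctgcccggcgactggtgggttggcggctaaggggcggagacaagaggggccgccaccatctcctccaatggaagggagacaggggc
UMPS: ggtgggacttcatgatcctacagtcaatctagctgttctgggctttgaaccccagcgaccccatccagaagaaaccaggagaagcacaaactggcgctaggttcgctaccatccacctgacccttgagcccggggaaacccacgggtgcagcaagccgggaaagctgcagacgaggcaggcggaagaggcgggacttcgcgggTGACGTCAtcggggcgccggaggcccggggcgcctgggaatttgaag
CAD: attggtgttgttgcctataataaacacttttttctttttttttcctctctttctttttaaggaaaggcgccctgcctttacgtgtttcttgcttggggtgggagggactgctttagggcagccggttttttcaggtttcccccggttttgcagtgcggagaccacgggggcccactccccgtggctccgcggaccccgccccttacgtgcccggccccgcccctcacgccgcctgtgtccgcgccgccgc
Both strands of these 250 bases were searched. A motif after the start or further upstream would not be seen, so its absence holds for this window only, for CAD as for the other genes. CACGTG began 159 bases before the start of DHODH and stood in the window of no other gene of the 9, against 6.34% of the 35116 promoter entries of the table. TGACGTCA began 47 bases before the start of UMPS, was found in none of the other 8 genes, and stood in 1.65% of all entries. TGATG, present in 28.8% of all entries, was found among the 9 genes only upstream of UCK2, on the opposite strand, 25 bases before the start. These matches are descriptions of letters, not of binding.

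**Figure D1:**
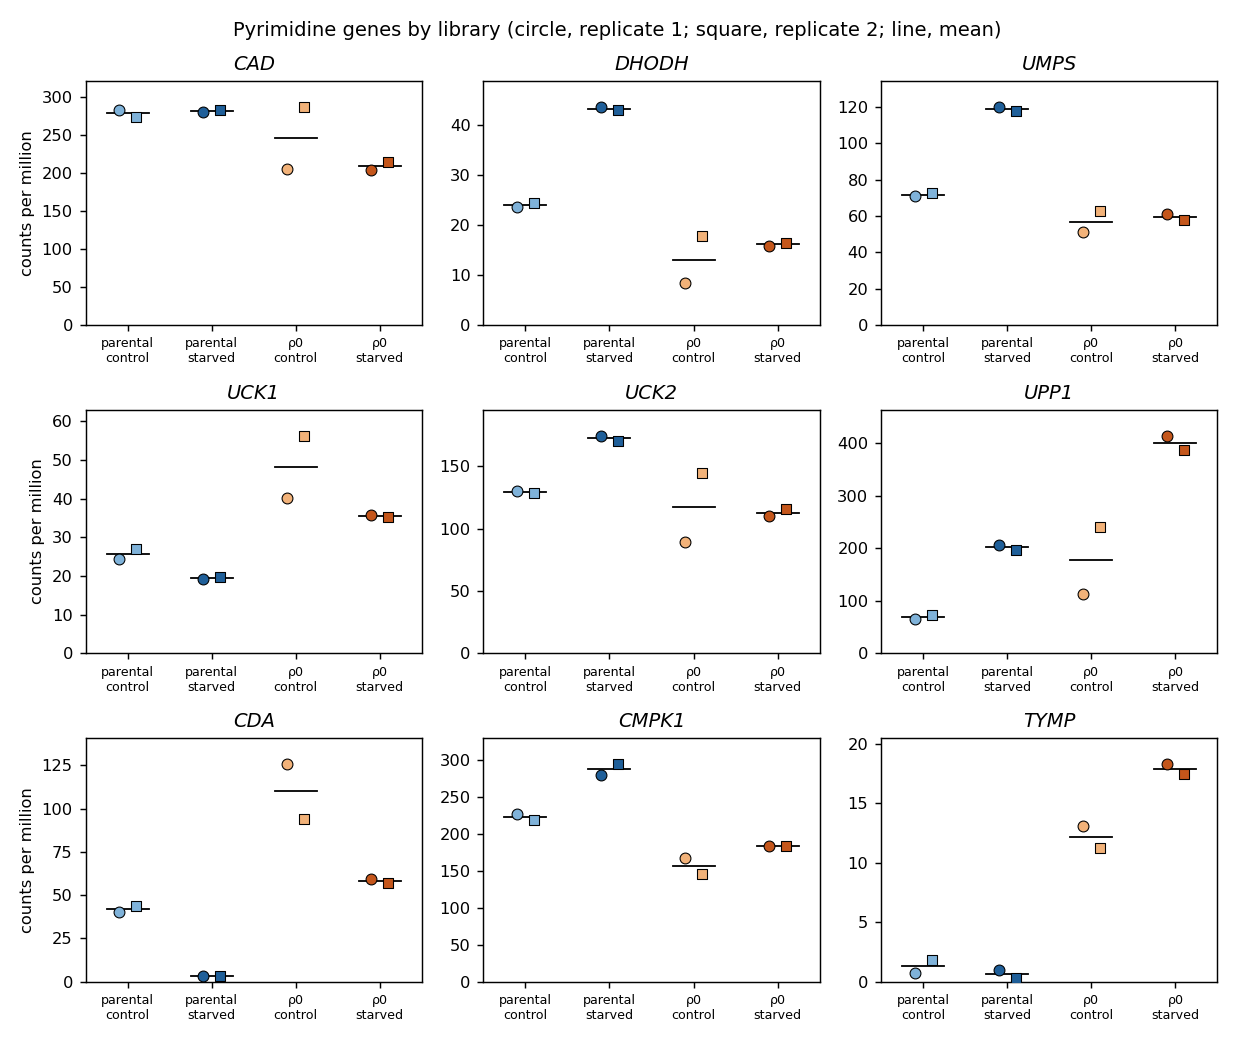
CPM of the 9 pyrimidine genes in each of the 8 libraries, 1 panel per gene with its own axis from 0. Circles are replicate 1, squares replicate 2 and lines group means. CDA falls to about 3.27 CPM in starved parental cells, UPP1 is highest in starved ρ0 cells, and the ρ0 control replicates stand apart for DHODH, UCK2 and UPP1.

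The question asked of the starved and control parental cells was how arginine starvation changes the pathway. In parental cells, 4 of the 9 genes rose (DHODH, UMPS, UPP1 and CMPK1), 1 fell (CDA) and 4 did not pass the test (adjusted p under 0.05, edgeR's quasi-likelihood test with Benjamini-Hochberg adjustment over all tested genes). Of all tested genes, 30.4% were called higher and 35.5% lower, and nothing is read from the counts of these 9 genes. The median log2 fold change of the 9 genes was 0.37, against -0.07 over all tested genes. UPP1 and CDA also passed the study's fold threshold, a log2 fold change beyond 1 in either direction, which 34.9% of all tested genes passed. Marker genes moved as well between these libraries. The summed level went from 3623 and 3710 to 2198 and 2197 CPM for the 5 markers of the line, from 271.8 and 281.7 to 118.2 and 115.2 CPM for the luminal markers, and from 3308 and 3256 to 1677 and 1674 CPM for 14 proliferation markers. Single markers did not all follow these sums. Of the 5 markers of the line, 3 were called lower and 1, ZEB1, higher (log2 fold change 1.08). Of 5 luminal markers tested, 2 were called lower (KRT8 and ERBB2) and 3 were not called. The part of these markers in the result was not tested.

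Among the de novo genes, CAD did not pass in parental cells, with 283.6 and 274.3 CPM in the controls and 280.8 and 283.2 CPM after starvation. The groups overlapped, and the log2 fold change was 0.02 ± 0.14 (SE, adjusted p = 0.932, edgeR). DHODH went from 23.57 and 24.24 CPM in the controls to 43.48 and 42.82 CPM after starvation. Both starved libraries were above both controls, a log2 fold change of 0.85 ± 0.28 (adjusted p = 0.0304, edgeR). That call was lost when any 1 of the 4 parental libraries was left out, with adjusted p between 0.0963 and 0.131 although the log2 fold change stayed between 0.83 and 0.87. UMPS rose from 70.85 and 72.46 to 120 and 117.7 CPM, again with no overlap, a log2 fold change of 0.73 ± 0.10 (adjusted p = 0.000597, edgeR). This call held whichever parental library was left out. So UMPS was higher, as was DHODH, with no overlap of its groups but a call that depended on every parental library. The estimate of spread behind that call is shared with the ρ0 control pair, where DHODH stood at 8.256 and 17.65 CPM. CAD, whose enzyme uses aspartate, did not pass. Within single libraries the ratio of CAD to UMPS reads was 4.003 and 3.786 in the parental controls and 2.341 and 2.406 after starvation, and that of CAD to DHODH reads went from 12.03 and 11.32 to 6.459 and 6.613. These ratios do not depend on the scaling between libraries.

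In the salvage route, the largest change among the 9 genes in parental cells was that of CDA, the cytidine deaminase, which fell from 40.26 and 43.97 CPM to 3.247 and 3.297 CPM. In counts, 1343 and 1266 reads in the controls stood against 82 and 93 after starvation. The log2 fold change was -3.68 ± 0.17 (adjusted p = 7.98e-06, edgeR), and it lay between -3.75 and -3.62 with any 1 parental library left out. UPP1, the uridine phosphorylase, moved the other way, from 66.23 and 72.18 to 206.8 and 197 CPM, a log2 fold change of 1.54 ± 0.30 (adjusted p = 0.00263, edgeR). CMPK1, the UMP/CMP kinase, rose by less, from 227.3 and 218.2 to 279.7 and 294.1 CPM, a log2 fold change of 0.37 ± 0.09 (adjusted p = 0.00786, edgeR). The call for CMPK1 was lost without parental control replicate 2 (adjusted p = 0.0587) and without parental starved replicate 2 (adjusted p = 0.0646).

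The uridine-cytidine kinases did not pass the test in parental cells. UCK1 had 24.43 and 27.02 CPM in the controls and 19.33 and 19.85 CPM after starvation (log2 fold change -0.39 ± 0.16, adjusted p = 0.0618, edgeR). UCK2 had 130.3 and 129.1 CPM and then 174.8 and 170.3 CPM (log2 fold change 0.41 ± 0.19, adjusted p = 0.0949, edgeR). In neither gene did the groups overlap, and the shared estimate of spread includes the ρ0 control pair. With the 4 parental libraries fitted alone, UCK2 passed (log2 fold change 0.44, adjusted p = 5.66e-07, edgeR), and UCK1 did too (-0.36, adjusted p = 0.000782). The ratio of UCK2 to UCK1 reads within a library went from 5.333 and 4.779 to 9.043 and 8.579. TYMP, the thymidine phosphorylase, was low in parental cells, with 25 and 53 reads in the controls and 25 and 9 after starvation, and its groups overlapped (log2 fold change -0.99 ± 0.55, adjusted p = 0.151, edgeR).

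**Figure D2:**
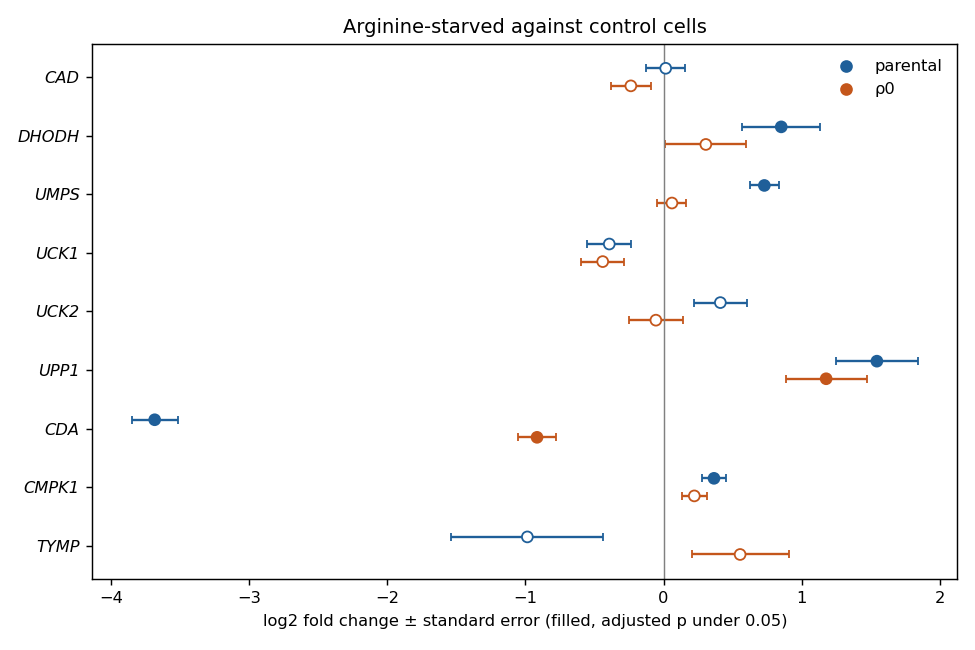
Log2 fold change of the 9 genes, arginine-starved against control, in parental and ρ0 cells, with bars of 1 standard error from edgeR's fit over 8 libraries. Filled points passed an adjusted p under 0.05. CDA lies at -3.68 in parental and -0.92 in ρ0 cells, UPP1 lies above 1 in both, and UMPS is called in parental cells.

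In ρ0 cells, 1 of the 9 genes rose under starvation (UPP1), 1 fell (CDA) and 7 did not pass. Of all tested genes, 19.2% were called higher and 22.1% lower, 12.4% passed the fold threshold as well, and of the 9 genes UPP1 alone did. The median log2 fold change was 0.06 for the 9 genes and -0.02 over all tested genes. The summed level of the markers of the line went from 6563 and 7614 to 5434 and 5294 CPM, that of the luminal markers from 724.3 and 806.9 to 213.1 and 213.2 CPM, and that of the proliferation markers from 3913 and 4221 to 1423 and 1434 CPM. Of the 5 markers of the line, 2 were called lower and 1, ZEB1, higher (log2 fold change 0.65). Of 5 luminal markers tested, 4 were called lower and 1 was not called. The part of these markers in the result was not tested. UPP1 was at 113.4 and 241 CPM in the ρ0 controls and 414.7 and 387.1 CPM after starvation. Both starved libraries lay above both controls (log2 fold change 1.18 ± 0.29, adjusted p = 0.016, edgeR). The size of this rise turned on the control replicate, with a log2 fold change of 0.74 without ρ0 control replicate 1 and 1.83 without replicate 2, and the call was lost without ρ0 starved replicate 1 (adjusted p = 0.075) or replicate 2 (adjusted p = 0.0598). CDA fell from 125.7 and 94.09 to 59.48 and 56.99 CPM, with no overlap (log2 fold change -0.92 ± 0.14, adjusted p = 0.00193, edgeR). It lay at -0.69 without ρ0 control replicate 1 and -1.10 without replicate 2.

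None of the 3 de novo genes passed in ρ0 cells. CAD had 205.8 and 286.7 CPM in the ρ0 controls and 203.5 and 214.6 CPM after starvation (log2 fold change -0.24 ± 0.14, adjusted p = 0.225, edgeR). DHODH had 8.256 and 17.65 CPM and then 15.75 and 16.36 CPM (0.31 ± 0.29, adjusted p = 0.44), so both starved libraries lay between the controls. UMPS had 51.03 and 62.58 CPM and then 60.94 and 57.57 CPM (0.06 ± 0.11, adjusted p = 0.679). For these genes the direction itself depended on the control library used. DHODH was -0.14 without ρ0 control replicate 1 and 0.97 without replicate 2, UMPS was -0.08 and 0.23, and CAD was -0.46 and 0.03.

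The remaining salvage genes likewise did not pass in ρ0 cells. UCK1 had 40.14 and 56.34 CPM in the controls and 35.82 and 35.29 CPM after starvation (log2 fold change -0.44 ± 0.16, adjusted p = 0.057, edgeR), with both starved libraries below both controls. It was -0.66 without ρ0 control replicate 1 and -0.16 without replicate 2. It passed with total counts (adjusted p = 0.0367), a minimum of 10 counts in every library (0.0443) and DESeq2 (0.0467). UCK2 had 89.47 and 144.8 CPM and then 110 and 115.5 CPM (-0.06 ± 0.19, adjusted p = 0.848), with the starved libraries between the controls. The log2 fold change of UCK2 was -0.36 without ρ0 control replicate 1 and 0.35 without replicate 2. The ratio of UCK2 to UCK1 reads was steadier than either gene, at 2.229 and 2.57 in the ρ0 controls and 3.071 and 3.272 after starvation. CMPK1 had 167.8 and 145.8 CPM and then 182.9 and 183 CPM (0.22 ± 0.09, adjusted p = 0.082). TYMP had 13.08 and 11.26 CPM and then 18.28 and 17.44 CPM (0.55 ± 0.35, adjusted p = 0.244). In both the starved libraries lay above the controls. Without ρ0 control replicate 1 and then without replicate 2, the log2 fold change was 0.33 and 0.14 for CMPK1 and 0.67 and 0.46 for TYMP.

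The difference between the responses, ρ0 minus parental, was tested as its own contrast. It asks whether the response of the pathway differs between this 1 ρ0 line and parental cells. The lines also differed in ASS1, with 10 and 3 reads in parental and 183 and 358 in ρ0 controls, and its part was not tested. The difference was called for 2 of the 9 genes, CDA with a higher and UMPS with a lower value. Of all tested genes, 21.6% were called higher and 18.8% lower. The fall of CDA was less deep in ρ0 cells by 2.77 ± 0.21 on the log2 scale (adjusted p = 0.000258, edgeR), and between 2.55 and 2.996 with any 1 library left out. The difference for UMPS was -0.67 ± 0.15 (adjusted p = 0.0109, edgeR). It stayed between -0.80 and -0.54 with any 1 library left out, while the call was lost without parental control replicate 1 (0.0503), parental starved replicate 1 (0.0535) or ρ0 starved replicate 2 (0.0515). For DHODH the difference was -0.55 ± 0.41 (adjusted p = 0.32), at -0.99 without ρ0 control replicate 1 and 0.08 without replicate 2, so the rise seen in parental cells is not shown to be absent in ρ0 cells. The difference for UPP1 was -0.37 ± 0.41 (adjusted p = 0.509), at -0.81 without ρ0 control replicate 1 and 0.25 without replicate 2. Those for CAD (-0.25), UCK1 (-0.05), UCK2 (-0.47), CMPK1 (-0.14) and TYMP (1.54) did not pass either. Without ρ0 control replicate 1 and then without replicate 2, they were -0.47 and -0.019 for CAD, -0.27 and 0.19 for UCK1, -0.77 and -0.10 for UCK2, -0.033 and -0.27 for CMPK1, and 1.65 and 1.40 for TYMP.

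**Figure D3:**
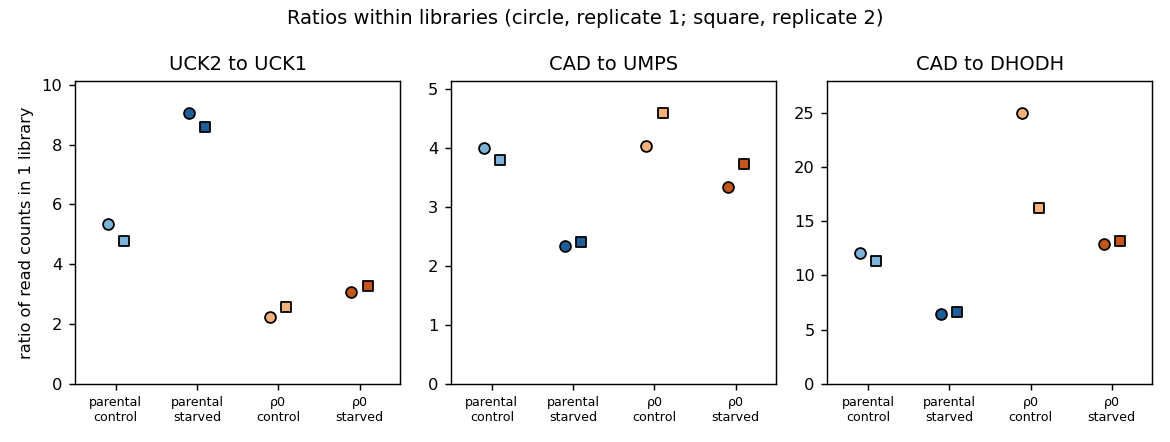
Ratios of read counts between pairs of pyrimidine genes within each library, with circles for replicate 1 and squares for replicate 2. UCK2 to UCK1 is highest in starved parental cells (9.043 and 8.579) and lowest in ρ0 controls (2.229 and 2.57), and CAD to DHODH is highest in ρ0 controls.

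Between the lines, control cells showed higher levels of 4 genes in ρ0 than in parental cells (UCK1, UPP1, CDA and TYMP), lower levels of 3 (DHODH, UMPS and CMPK1) and no call for CAD and UCK2. Of all tested genes, 30.5% were called higher and 31.8% lower, and 30.9% also passed the fold threshold, as UPP1, CDA and TYMP did. The higher genes were of the salvage and breakdown side, but UCK2 of that side was not called and CMPK1, which serves both routes, was lower. Among the other salvage genes tested, 2 of 5 were higher and 1 lower. For breakdown, 3 of 7 were higher and 2 lower, so no direction of salvage is read from this. Marker genes also differed between these libraries. The markers of the line summed to 6563 and 7614 CPM in ρ0 and 3623 and 3710 CPM in parental controls. Of these 5 markers, 4 were called higher and 1, ZEB1, lower in ρ0 controls (log2 fold change -0.47). Of the luminal markers, 4 of 5 tested were higher and 1 lower in ρ0 controls, with a summed level of 724.3 and 806.9 CPM against 271.8 and 281.7 CPM, and their part in the result was not tested. TYMP differed most, at 13.08 and 11.26 CPM in ρ0 and 0.7495 and 1.841 CPM in parental controls (log2 fold change 3.25 ± 0.42, adjusted p = 0.000397, edgeR). CDA was at 125.7 and 94.09 against 40.26 and 43.97 CPM (1.38 ± 0.14, adjusted p = 0.000106), and UPP1 at 113.4 and 241 against 66.23 and 72.18 CPM (1.36 ± 0.30, adjusted p = 0.00526). UCK1 was at 40.14 and 56.34 against 24.43 and 27.02 CPM (0.91 ± 0.16, adjusted p = 0.00172). All 4 kept their direction without ρ0 control replicate 1 or replicate 2. In turn, the values were 3.16 and 3.43 for TYMP, 1.16 and 1.63 for CDA, 1.80 and 0.77 for UPP1, and 1.13 and 0.70 for UCK1.

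On the lower side, DHODH was at 8.256 and 17.65 CPM in ρ0 controls against 23.57 and 24.24 CPM in parental controls, with no overlap (log2 fold change -0.88 ± 0.29, adjusted p = 0.0309, edgeR). It was -0.43 without ρ0 control replicate 1 and -1.48 without replicate 2, and the call was lost without parental control replicate 1 (adjusted p = 0.102) or replicate 2 (adjusted p = 0.113). UMPS was at 51.03 and 62.58 against 70.85 and 72.46 CPM (-0.33 ± 0.11, adjusted p = 0.0253), a call also lost without parental control replicate 1 (0.0837) or replicate 2 (0.106). CMPK1 was at 167.8 and 145.8 against 227.3 and 218.2 CPM (-0.51 ± 0.09, adjusted p = 0.00182). Without ρ0 control replicate 1 and then without replicate 2, UMPS was -0.19 and -0.43 and CMPK1 -0.61 and -0.35. CAD (-0.18 ± 0.14, adjusted p = 0.307) and UCK2 (-0.15 ± 0.19, adjusted p = 0.529) had both parental values inside the range of the ρ0 pair, and both changed direction without ρ0 control replicate 1, to 0.04 and 0.16.

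After starvation, all 9 genes were called between the lines, 4 higher and 5 lower in ρ0 cells, where both pairs of libraries were tight. Of all tested genes, 32.9% were called higher, 33.5% lower, and 35.5% passed the fold threshold, as CDA, TYMP, DHODH and UMPS did. The markers of the line summed to 5434 and 5294 CPM in ρ0 and 2198 and 2197 CPM in parental cells, and the luminal markers to 213.1 and 213.2 against 118.2 and 115.2 CPM. In each of these lists 4 of the 5 tested markers were called higher in ρ0 cells and 1 lower. The lower ones were ZEB1 (log2 fold change -0.90) and FOXA1 (-6.63). The part of these markers in the result was not tested. All 3 de novo genes were lower in ρ0 cells. DHODH was at 15.75 and 16.36 against 43.48 and 42.82 CPM (log2 fold change -1.43 ± 0.29, adjusted p = 0.00339, edgeR), UMPS at 60.94 and 57.57 against 120 and 117.7 CPM (-1.003 ± 0.11, adjusted p = 0.000117), and CAD at 203.5 and 214.6 against 280.8 and 283.2 CPM (-0.43 ± 0.14, adjusted p = 0.0297). UCK2 (-0.61 ± 0.19, adjusted p = 0.024) and CMPK1 (-0.65 ± 0.09, adjusted p = 0.000457) were lower too. The calls for CAD and UCK2 were each lost when any 1 of the 4 starved libraries was left out (adjusted p between 0.102 and 0.158 for CAD and between 0.079 and 0.122 for UCK2).

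The salvage genes higher in starved ρ0 cells were the same 4 as in the controls. CDA was at 59.48 and 56.99 against 3.247 and 3.297 CPM (log2 fold change 4.15 ± 0.17, adjusted p = 1.78e-06, edgeR). TYMP, at 18.28 and 17.44 against 0.99 and 0.319 CPM, differed by 4.79 ± 0.47 (adjusted p = 8.64e-05). UPP1 was at 414.7 and 387.1 against 206.8 and 197 CPM (0.99 ± 0.29, adjusted p = 0.0186), a call lost without parental starved replicate 1 (adjusted p = 0.074), parental starved replicate 2 (0.0912) or ρ0 starved replicate 1 (0.0691). UCK1 was at 35.82 and 35.29 against 19.33 and 19.85 CPM (0.86 ± 0.16, adjusted p = 0.00216). Within libraries, the log2 ratio of UPP1 to TYMP reads was 6.47 and 5.29 in parental controls, 7.71 and 9.27 in starved parental cells, 3.12 and 4.42 in ρ0 controls and 4.50 and 4.47 in starved ρ0 cells, so that every ρ0 library lay below every parental one. The comparisons in control and starved cells use different libraries, but each shares its libraries with the starvation comparisons above.

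**Figure D4:**
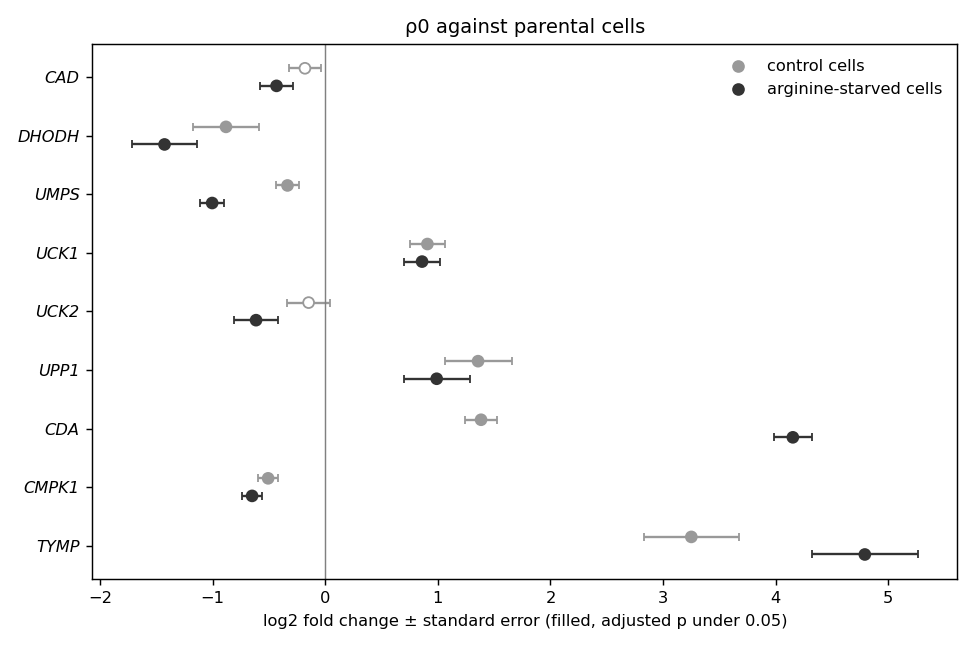
Log2 fold change of the 9 genes, ρ0 against parental, in control and in arginine-starved cells, with bars of 1 standard error from edgeR's fit over 8 libraries. Filled points passed an adjusted p under 0.05. TYMP, CDA, UPP1 and UCK1 lie above 0 in both conditions, and DHODH, UMPS and CMPK1 below 0.

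TYMP shares exon sequence with its neighbours in GENCODE v29, 347 bases with ODF3B and 339 bases with SCO2, 10.5 and 10.2% of its 3320 exon bases, and how reads there were counted is not given in the sources used here. SCO2 had 28 to 50 reads in each library and ODF3B had 3 to 8 reads in parental and 35 to 47 in ρ0 libraries, against 350 to 541 TYMP reads in the latter. UCK2 overlaps TMCO1 on the opposite strand over 225 bases and an antisense gene, AL358115.1, over 253 bases, 3.18 and 3.58% of its exon length. UCK1 and UCK2 are paralogs, and the treatment of reads that match both is not given either.

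Compared per kb of exon (GENCODE v29, all annotated exons), the most abundant of the 9 transcripts in parental controls was CMPK1 at 58.0 ± 1.67 CPM per kb (SD, n = 2), followed by CDA (43.7), CAD (33.1), UCK2 (18.4), UPP1 (15.1), UCK1 (9.57), UMPS (9.45), DHODH (3.45) and TYMP (0.390). UCK1 and UMPS overlapped there, and the other neighbours did not. After starvation CDA stood in place 8 of 9 in parental cells, at 3.398 CPM per kb, and UPP1 in place 2, at 44.1. In ρ0 controls CDA was first, at 114 ± 23.2, while CMPK1 and UPP1, UPP1 and CAD, and UCK1 and UCK2 overlapped. In starved ρ0 cells UPP1 was first, at 87.6 ± 4.26, then CDA at 60.5 and CMPK1 at 47.6, and DHODH was last, at 2.32. These lengths come from another annotation than the one used for counting, which can shift the levels of a gene but not its comparisons between groups.

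**Figure D5:**
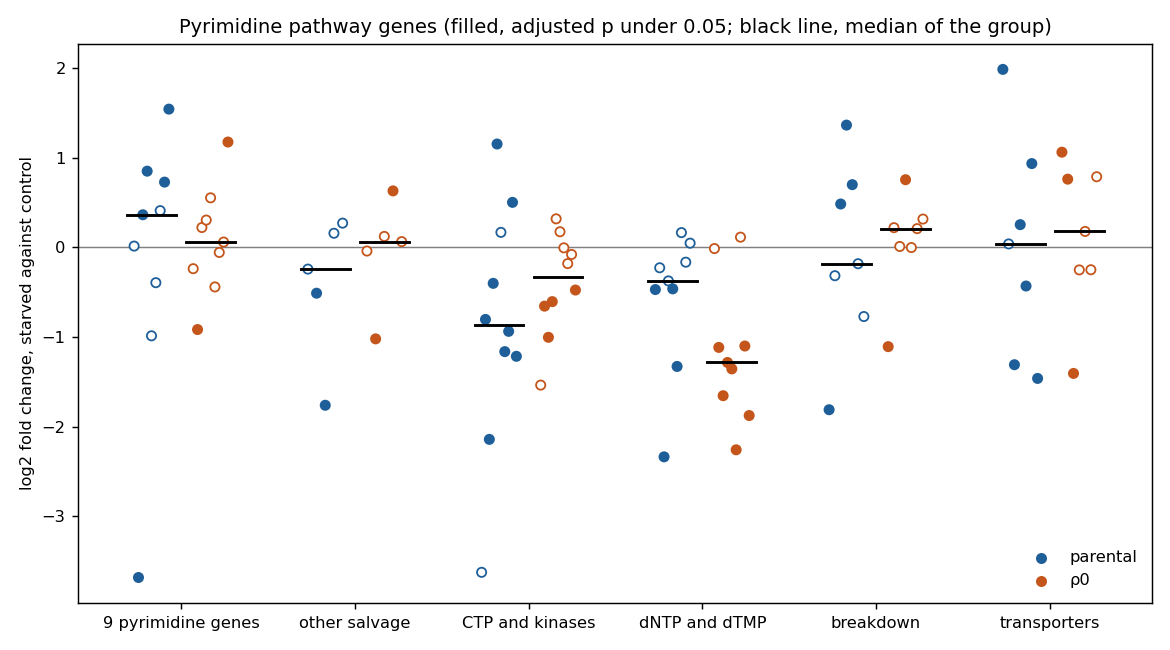
Log2 fold change under starvation of the 9 genes and of 5 groups of other pyrimidine genes, 1 point per tested gene, in parental and ρ0 cells. Filled points passed an adjusted p under 0.05 and black lines are medians. In ρ0 cells 7 of 9 genes of deoxynucleotide and thymidylate synthesis lie below -1 and passed, as did 1250 of all 15262 tested genes. The count depends on the ρ0 controls, since SAMHD1 was at -0.76 without ρ0 control replicate 1.

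Around these 9 genes, 44 further genes of the pyrimidine pathway were listed, of which 38 were tested. In parental cells 8 rose, 16 fell and 14 did not pass under starvation (median log2 fold change -0.34), beside 30.4% of all tested genes called higher and 35.5% lower. In ρ0 cells 4 rose, 14 fell and 20 did not pass (-0.06), beside 19.2% higher and 22.1% lower. For the difference of responses 10 were higher and 11 lower, beside 21.6 and 18.8%. Against parental cells, ρ0 controls had 11 higher and 12 lower, beside 30.5 and 31.8%, and starved ρ0 cells 9 higher and 16 lower, beside 32.9 and 33.5%. The counts that use the ρ0 controls changed without one of them. Without ρ0 control replicate 1 and then without replicate 2, 9 and 11 rose and 19 and 17 fell in ρ0 cells, 15 and 15 were higher and 16 and 15 lower for the difference, and 18 and 13 were higher and 13 and 17 lower between the control lines. Such fits called more genes overall as well, 4825 and 4801 higher and 4959 and 4919 lower of all those tested in ρ0 cells. The groups below hold 5 to 10 tested genes each, several of them with shares near those of all genes, and nothing is read from their counts. In the group of deoxynucleotide and thymidylate synthesis, none rose and 4 of 9 fell in parental cells. In ρ0 cells none rose and 7 of 9 fell. RRM2, a subunit of ribonucleotide reductase, fell in both (log2 fold change -1.33 ± 0.25 in parental, adjusted p = 0.00252, and -2.26 ± 0.26 in ρ0, adjusted p = 0.000689, edgeR). Its ρ0 controls stood at 214.9 and 405.8 CPM, and the ρ0 value was -2.64 without replicate 1 and -1.71 without replicate 2. RRM1, its partner subunit, fell by 0.46 in parental and 1.36 in ρ0 cells on the log2 scale. TK1, the cytosolic thymidine kinase, which is listed with the other salvage genes, fell by 0.51 and 1.02. Without ρ0 control replicate 1 and then without replicate 2, the ρ0 value was -1.55 and -1.11 for RRM1 and -0.88 and -1.13 for TK1. TYMS, thymidylate synthase, had 32.35 and 34.91 CPM in parental controls and 35.09 and 34.45 CPM after starvation, but 32.78 and 48.24 CPM in ρ0 controls and 11.02 and 11.06 CPM after starvation (difference of responses -1.92 ± 0.25, adjusted p = 0.0014, at -2.17 without ρ0 control replicate 1 and -1.65 without replicate 2). DUT, the dUTPase, did not pass in parental cells (-0.37) and fell in ρ0 cells (-1.28, or -1.57 and -0.90 without ρ0 control replicate 1 and 2 in turn). The deoxycytidine kinase DCK, also listed with the other salvage genes, passed in neither line (-0.24 and -0.04). In ρ0 cells DCK was -0.25 without ρ0 control replicate 1 and 0.22 without replicate 2. Proliferation markers moved with the group of deoxynucleotide and thymidylate synthesis. Of 14, 8 fell in parental and 14 in ρ0 cells, with the summed levels given above. Their part in the result was not tested.

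Among genes for CTP synthesis and nucleotide kinases, 2 of 10 rose and 6 fell in parental cells, and none rose and 4 fell in ρ0 cells. CTPS1, CTP synthase, fell in both lines (-0.80 and -0.65, the latter -0.93 without ρ0 control replicate 1 and -0.30 without replicate 2), and CTPS2, its paralog, went from 66.86 and 67.04 to 15.09 and 15.24 CPM in parental cells (-2.14 ± 0.12, adjusted p = 1.21e-05, edgeR). CTPS2 was at 13.15 and 13.92 CPM in ρ0 controls (ρ0 against parental -2.31, or -2.26 and -2.29 without ρ0 control replicate 1 and 2 in turn). It fell in ρ0 cells as well, to 7.503 and 5.964 CPM after starvation (-1.003 ± 0.13, adjusted p = 0.000967, edgeR). In the group of other salvage genes, 2 of 5 tested genes fell in parental cells, and 1 rose and 1 fell in ρ0 cells. TK2, the mitochondrial thymidine kinase, had a difference of responses of 1.88 ± 0.14 (adjusted p = 0.000225), with 27.19 and 29.45 CPM in parental controls, 8.554 and 8.153 CPM after starvation, and 30.26 to 33.67 CPM in the ρ0 libraries. UPRT was higher in ρ0 than in parental controls by 1.14 (1.13 and 1.22 without ρ0 control replicate 1 and 2 in turn), and NME6 by 1.51 (1.73 and 1.298). Of 7 tested genes for breakdown, 3 rose and 1 fell in parental cells, and 1 rose and 1 fell in ρ0 cells. NT5C3A, a pyrimidine nucleotidase, rose in both lines (log2 fold change 1.37 in parental and 0.76 in ρ0 cells). DPYD, which starts uracil and thymine breakdown, fell in both (-1.81 and -1.11). Without ρ0 control replicate 1 the ρ0 values were 0.45 for NT5C3A and -0.87 for DPYD. Of 7 tested transporters, 3 rose and 3 fell in parental cells, and 2 rose and 1 fell in ρ0 cells. SLC25A33, a mitochondrial pyrimidine nucleotide carrier, rose by 1.99 in parental and 1.06 in ρ0 cells, the latter 0.88 without ρ0 control replicate 1. The transporter gene SLC29A4 was lower in ρ0 than in parental controls (-4.02, or -4.83 and -3.43 without ρ0 control replicate 1 and 2 in turn). Between the starved lines, TK2 (1.99) was higher in ρ0 cells, and TYMS (-1.65), SLC25A33 (-1.26) and CTPS2 (-1.17) were lower.

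Of the 9 genes for precursor supply, 4 rose and 2 fell in parental cells, and 2 rose and 2 fell in ρ0 cells. ASNS, asparagine synthetase, which consumes aspartate, rose in both lines (2.37 ± 0.28 in parental, adjusted p = 0.000207, and 2.97 ± 0.28 in ρ0, adjusted p = 0.000342, edgeR). Its ρ0 controls stood at 34.83 and 69.78 CPM, and the ρ0 value was 2.56 without replicate 1 and 3.57 without replicate 2. ASS1 had 10 and 3 reads in parental controls and 1 and 2 after starvation, close to the floor, and 183 and 358 reads in ρ0 controls and 684 and 538 after starvation (log2 fold change in ρ0 1.34 ± 0.29, adjusted p = 0.00859, at 0.98 and 1.85 without ρ0 control replicate 1 and 2 in turn). CPS1, a mitochondrial carbamoyl phosphate synthetase, was lower in ρ0 than in parental controls (-2.71, or -3.27 and -2.25 without ρ0 control replicate 1 and 2 in turn).

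For each of the 9 genes, the gene outside these lists whose profile over the 8 libraries was closest was found by the root mean square difference of centred log2 CPM. It was NPM3 for DHODH (0.0885), SKIV2L2 for UMPS (0.0412), SRCAP for CAD (0.0453), PIM2 for UCK1 (0.0714), MCMBP for UCK2 (0.047), PLIN2 for UPP1 (0.128), S100A3 for CDA (0.16) and HS2ST1 for CMPK1 (0.0364). For TYMP the nearest, CTSD, was 0.528 away. TYMP had 25 and 53 reads in parental controls and 25 and 9 after starvation, so counting error enters this distance. Whether any gene followed TYMP closely cannot be told from it.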

How the data were processed

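Gene expression was measured by RNA sequencing of TRIzol-extracted RNA from 8 libraries, 2 in each of 4 groups defined by the labels. The authors deposited 1 table with the raw read counts of 23393 gene symbols. The submitters' processing notes name Bowtie, Partek and the genome build hg19, and the counting tool, strand setting and annotation are not given in the sources used here. Totals were 25259503 to 31022155 counts, and intervals from such counts cover counting error only.

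Counts were tested with edgeR 4.0.16 in R 4.3.3 (TMM, filterByExpr, quasi-likelihood F-test, 1 mean per group, all 8 libraries, 4 residual degrees of freedom), which left 15262 genes, with Benjamini-Hochberg adjustment over them and calls at 0.05. Standard errors were obtained from the log2 fold change and its F statistic. Scripts were tested on simulated data. Alternatives were other scalings, other filters, DESeq2 1.42.0, limma-voom (limma 3.58.1), a replicate block, the compared libraries alone and leaving out each library. A limma-voom fit with a weight per group, and the fits of other pathway genes without each ρ0 control library, were chosen after seeing the data. The 9 genes and the pathway lists were chosen with earlier results of these data known. Named genes were the 9, TK1, TYMS, RRM1, RRM2, DUT, DCK, CTPS1 and ASS1, and per comparison up to 3 rises and 3 falls of other pathway genes past both thresholds with at least 10 CPM and no overlap, of which 1 gene is not reported here. Promoters came from RefSeq (all 9 genes matched) and exon lengths from GENCODE v29.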

Additional observations from a re-analysis of the deposited data

Results flagged for a closer look

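The responses to starvation differed between the lines, by the test of the difference itself (ρ0 minus parental, log2, edgeR, adjusted p under 0.05), for 2 of the 9 pyrimidine genes, UMPS (-0.67) and CDA (2.77). Among the other named pathway genes, the difference was -1.92 for TYMS, -1.19 for SLC29A3, -0.92 for SLC25A33, -0.91 for DUT, -0.89 for RRM1 and -0.51 for TK1. It was 0.70 for DPYD, 1.14 for CTPS2, 1.41 for CPS1, 1.88 for TK2, 2.25 for SLC29A4 and 3.16 for ASS1. The value for ASS1 rests on parental libraries with 1 to 10 reads, and SLC29A4 was at or under 1.45 CPM in the ρ0 libraries. Each of these 14 differences kept its direction without ρ0 control replicate 1 and without replicate 2. In those fits the ρ0 control pair adds nothing to the spread, so whether a call was kept says little and is not given. Groups of 2 libraries were too small for a test of single outlying samples.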

How the results depend on the processing

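Of the single-gene values of the 9 genes under the settings other than leaving out a library, 409 kept their direction and side of the threshold, 8 lost the call, 13 gained it and 6 changed direction. With 1 library left out these were 157, 26, 22 and 11. Where 1 library of a group remained, it was assumed to vary like the other groups. The cause was not tested for any of these changes.

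In parental cells upper quartile scaling and total counts shifted the median of all genes from -0.07 to -0.19 and -0.23. The number of the 9 genes called higher went from 4 to 2 with total counts, and the number called lower from 1 to 2 with upper quartile scaling, total counts, a minimum of 10 counts in every library (which dropped TYMP) and the parental libraries alone, and to 3 with group weights. Leaving out a library gave 2 to 3 higher and 1 to 2 lower. DHODH lost its call with upper quartile scaling (adjusted p = 0.0544) and total counts (0.0681), CMPK1 with total counts (0.0656). CAD was -0.10 (upper quartile), -0.15 (total counts) and -0.018 (minimum of 10 counts), and -0.0125 to 0.041 with a library left out.

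In ρ0 cells the count called higher went from 1 to 0 with the ρ0 libraries alone, and the count called lower from 1 to 2 with total counts, a minimum of 10 counts and DESeq2. Leaving out a library gave 0 to 6 higher and 1 to 4 lower, with 3 higher and 4 lower without ρ0 control replicate 1, 6 higher without replicate 2, and 0 higher without either ρ0 starved replicate. UMPS was -0.018 with total counts. Without ρ0 control replicate 1 and then without replicate 2, the log2 fold change was -0.46 and 0.035 for CAD, -0.14 and 0.97 for DHODH, -0.076 and 0.23 for UMPS, and -0.36 and 0.35 for UCK2, the lowest and highest with a library left out.

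For the difference of responses, the count called higher went from 1 to 2 with DESeq2 and with group weights (TYMP in both), and leaving out a library gave 1 to 3 higher and 0 to 6 lower, with 6 lower without ρ0 control replicate 1 and 0 without parental control replicate 1, parental starved replicate 1 or ρ0 starved replicate 2. UCK1 was 0.046 (upper quartile), 0.035 (total counts) and 0.025 without parental control replicate 1. Without ρ0 control replicate 1 and then without replicate 2, DHODH was -0.99 and 0.079, UCK1 -0.27 and 0.19, and UPP1 -0.81 and 0.25.

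Between control lines the count called lower went from 3 to 1 with those libraries alone, and ranged from 1 to 5 with a library left out (1 without either parental control, 5 without ρ0 control replicate 2). CAD was 0.040 and UCK2 0.16 without ρ0 control replicate 1, and -0.38 and -0.48 without replicate 2. Between starved lines the count called lower was 5, and 3 with any 1 starved library left out.

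Replicates of the same number did not deviate together (correlations between groups -0.053 to 0.0386), so the numbers were not taken as pairs. With the replicate block the counts were 4 higher and 1 lower in parental cells, 1 and 1 in ρ0 cells, 1 and 1 for the difference, 4 and 3 between control lines and 4 and 5 between starved lines, as without it.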
